A study of Mus musculus with 7 samples.

Results

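The let-7 and miR-98 guide strands are the 9 mature 5p miRNAs let-7a to let-7g, let-7i and miR-98, taken by name from the 1966 miRNAs counted in each library. Small RNA was sequenced from hepatocyte-enriched cells of mouse liver, obtained by collagenase perfusion and low-speed centrifugation, to ask how ALAS, which makes 5-aminolevulinate at the start of heme synthesis, bears on small RNAs. The 7 libraries are 3 labelled WT and 4 labelled ALAS12-KO, the series' name for cells mutant in ALAS1/2, and all 7, the controls included, carry the treatment label TMX, given without its long form. No age, strain, Cre driver or floxed allele is named, nor whether each replicate is its own animal, so the p-values cover the spread of these samples alone, part of which may be technical. Among the 7 libraries, ALAS12-KO replicate 1 was lowest in its shares of endothelial, leukocyte and mesenchymal miRNAs. Log2 fold changes of the 9 guide strands and of the summed family are therefore given with and without it. Those of other miRNAs rest on all 7 libraries. All 9 guide strands were read in all 7 libraries, at 2250 to 664109 reads each, and all 9 passed the filter on low counts, among 450 miRNAs tested. Alas1 and Alas2 mRNA are not in miRNA counts, which therefore give no check of the genotype labels.

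A let-7 precursor is a hairpin cut by Drosha and Dicer into 2 strands, of which the 5p strand is kept by Argonaute as the guide and the 3p strand is mostly discarded. The guide finds messages through its seed, the bases near its 5′ end, so miRNAs that share a seed are taken to share many targets. Let-7 was found as a timing gene of the worm, is scarce in early embryos, where LIN28 blocks its maturation, and is abundant in most adult tissues, liver among them. Its known targets include Lin28 itself, Hmga2 and Ras genes.

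The mature sequences show why the 9 count as 1 family and why their counts are hard to separate. They come from RefSeq (GRCm38.p6), in which all 9 names matched, and are written 5′ to 3′ with the seed, bases 2 to 8, in capitals.
mmu-let-7a-5p: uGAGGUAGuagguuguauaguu
mmu-let-7b-5p: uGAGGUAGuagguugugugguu
mmu-let-7c-5p: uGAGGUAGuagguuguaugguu
mmu-let-7d-5p: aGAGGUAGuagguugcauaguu
mmu-let-7e-5p: uGAGGUAGgagguuguauaguu
mmu-let-7f-5p: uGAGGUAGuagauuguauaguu
mmu-let-7g-5p: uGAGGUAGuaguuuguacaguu
mmu-let-7i-5p: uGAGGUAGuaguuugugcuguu
mmu-miR-98-5p: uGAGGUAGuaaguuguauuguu

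All 9 are 22 bases long, carry the same seed, and are alike at 14 of the 22 positions. With positions counted from 1 at the 5′ end and let-7a as the reference, let-7c differs only by A19G, let-7f only by G12A and let-7e only by U9G. Let-7b has A17G and A19G, let-7d has U1A and U16C, let-7g has G12U and U18C, and miR-98 has G11A and A19U. Let-7i is the farthest from let-7a, with the 4 changes G12U, A17G, U18C and A19U. Of the 36 pairs of members, 4 differ at 1 position, which chains let-7a, let-7b, let-7c, let-7e and let-7f into 1 group of near neighbours. How the deposited counts treated reads that fit several members is not given in the sources used here, so single members are uncertain and values summed over the family or over near neighbours are given beside them.

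The 9 guides come from 12 hairpins on 7 chromosomes (GRCm38, with host genes from GENCODE). Mirlet7a-1, Mirlet7f-1 and Mirlet7d lie together on the minus strand of chromosome 13, from 48536012 to 48538272, in exons of the noncoding RNA 6720427I07Rik. Mirlet7c-2 and Mirlet7b lie 621 bases apart on the plus strand of chromosome 15, from 85706603 to 85707403, in an exon of the noncoding RNA Lncppara. Mirlet7f-2 and Mir98 lie 785 bases apart on the plus strand of chromosome X, from 151912346 to 151913321, in an intron of the ubiquitin ligase gene Huwe1. Mirlet7g lies on chromosome 9 at 106178840 to 106178927, in an intron of Wdr82, and Mirlet7i on chromosome 10 at 122985640 to 122985724, overlapping an exon of the transcribed pseudogene D630033A02Rik. Mirlet7a-2, Mirlet7c-1 and Mirlet7e each sit beside hairpins of the miR-99, miR-100 and miR-125 families. Mirlet7a-2 is on chromosome 9 (41536716 to 41536811), 5211 bases from Mir100. Mirlet7c-1 is on chromosome 16 (77599657 to 77599750), 656 bases from Mir99a, in an intron of Mir99ahg. Mirlet7e is on chromosome 17 (17830352 to 17830444), in an intron of Spaca6, between Mir99b at a gap of 94 bases and Mir125a at 367.

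The guides together took about the same share of miRNA reads in both genotypes. The share was 8.40%, 8.10% and 8.22% in WT replicates 1 to 3, and 7.91%, 7.89%, 8.25% and 8.46% in ALAS12-KO replicates 1 to 4. The means were 8.24% ± 0.150 (SD, n = 3) and 8.13% ± 0.278 (SD, n = 4), and the groups overlapped. The lowest and the highest of the 7 values were both in ALAS12-KO. On the scale of TMM factors, which set libraries level over the bulk of miRNAs, the summed family had a log2 fold change of 0.12 ± 0.09 (SE). These factors were computed anew with the family as 1 row, so the summed value and those of single members are not on the same scale. The summed family had 0.11 without ALAS12-KO replicate 1, 0.22 without ALAS12-KO replicate 3 and 0.20 without ALAS12-KO replicate 4. With library totals in place of TMM factors it was −0.02, so its sign depends on the scaling. All tested miRNAs shift with it, since their median log2 fold change was 0.06 with TMM and −0.12 with library totals. Control RNAs added to each sample were not analysed here, so a change shared by all miRNAs would not show.

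Within the family the reads were very unequal, and their order was nearly the same in every library. All 9 are of 1 length, but reads are not calibrated between sequences, so the order is that of reads, not of molecules. Let-7f-5p, the third most abundant of all miRNAs, held 38.1% of family reads on average over the 7 libraries (36.7% to 39.9%). Let-7a-5p held 21.1%, let-7c-5p 16.1% and let-7g-5p 10.5%. Let-7f, let-7a, let-7c and let-7g together made up 85.0% ± 0.313 of the family in the 3 WT libraries and 86.5% ± 0.693 (SD) in the 4 ALAS12-KO libraries. Let-7b-5p held 6.99%, let-7i-5p 4.39% and let-7d-5p 2.00%. Let-7e-5p and miR-98-5p were the rarest, at 0.393% and 0.379%. Each member had more reads than the next in 7 of 7 libraries, down to let-7d over let-7e, while let-7e exceeded miR-98 in only 3 of 7, so those 2 do not differ in level beyond their spread. Let-7f had 96.2 to 104 times the reads of miR-98, although Mirlet7f-2 and Mir98 lie side by side in Huwe1; let-7f is also made from Mirlet7f-1.

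**Figure D1:**
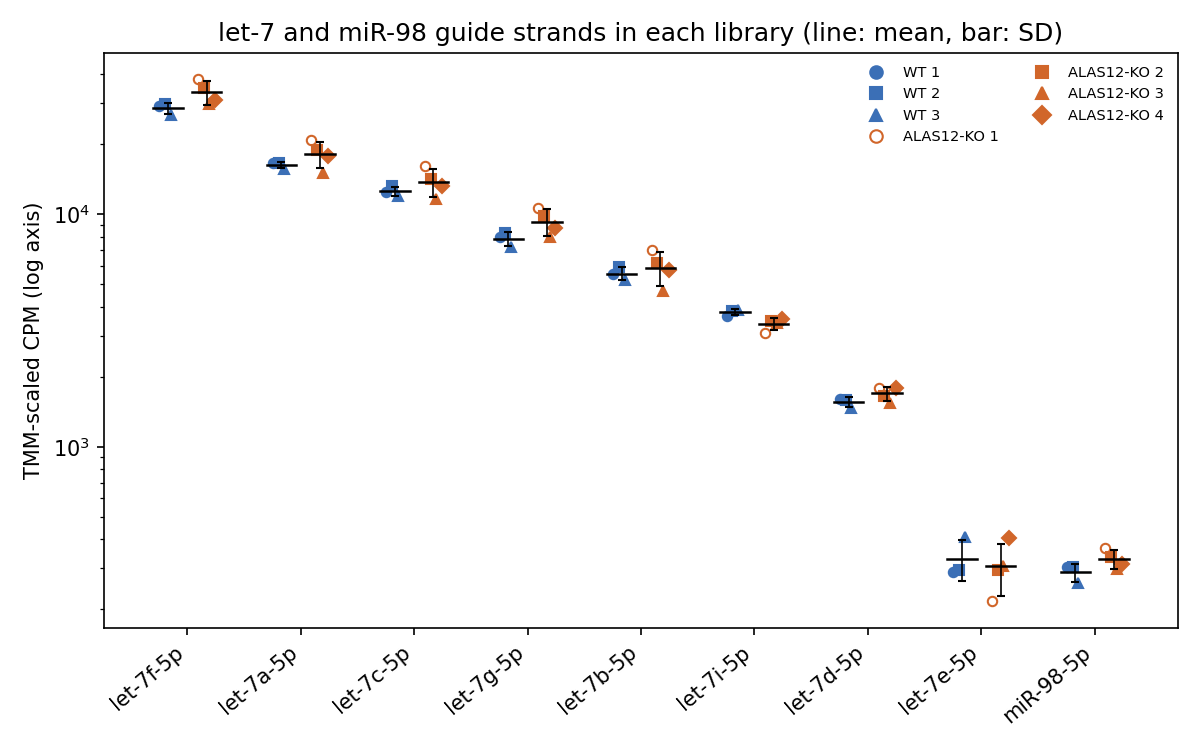
TMM-scaled counts scaled by library size (CPM, log axis) of the 9 guide strands in each library, ordered by abundance; blue, WT (n = 3), orange, ALAS12-KO (n = 4), line and bar the mean and SD, with ALAS12-KO replicate 1 drawn as an open circle. The order runs from let-7f down to let-7e and miR-98, and only for let-7i do the groups not overlap.

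None of the 9 guide strands passed the test between the genotypes. The edgeR quasi-likelihood test with Benjamini-Hochberg adjustment over 450 miRNAs called 0 of 9 members and 0% of all miRNAs at 0.05, with adjusted p from 0.316 to 0.805 for the members. At unadjusted p under 0.05 there were 0 of 9 members, against 18.7% of all miRNAs. DESeq2 called 0 of 9 members and 4.67% of all miRNAs, and limma-voom called 0 of 9 members. Log2 fold changes of ALAS12-KO against WT were positive for 7 members and negative for let-7i and let-7e, with a median of 0.14, beside a median of 0.06 and 56% positive over all tested miRNAs. The positive count was 3 of 9 with library totals and 4 of 9 when a mean of at least 10 CPM was required, so it depends on the scaling and the filter.

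On the TMM scale the abundant members, let-7f, let-7a, let-7c, let-7g and let-7b, were highest in ALAS12-KO replicate 1 and, within ALAS12-KO, lowest in replicate 3. This order depends on the scaling: with library totals let-7f was highest in ALAS12-KO replicate 3, at 32900 CPM against 30736 in replicate 1, and let-7a and let-7g were highest in ALAS12-KO replicate 4. Let-7f-5p stood at 29075, 29781 and 26775 TMM-scaled CPM in WT replicates 1 to 3, and at 38117, 34970, 29728 and 30910 in ALAS12-KO replicates 1 to 4. ALAS12-KO replicate 3 lay inside the WT range and the other ALAS12-KO libraries above it. The log2 fold change was 0.23 ± 0.12 (SE; edgeR adjusted p = 0.316), with a 95% interval up to 0.50, and it was 0.14 without ALAS12-KO replicate 1. Let-7g-5p, from the intron of Wdr82, stood at 8002, 8271 and 7237 CPM in WT and at 10668, 9852, 7960 and 8687 in ALAS12-KO. It again had 3 ALAS12-KO libraries above all WT libraries, and a log2 fold change of 0.25 ± 0.13 (edgeR adjusted p = 0.320), the highest of the 9. The interval reached 0.54, and without ALAS12-KO replicate 1 the log2 fold change was 0.15.

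Let-7a-5p ran from 15661 to 16621 CPM in WT and from 15089 to 20759 in ALAS12-KO, with a log2 fold change of 0.16 ± 0.13. Let-7c-5p (0.14 ± 0.13) and let-7b-5p (0.09 ± 0.15), whose guides share the chromosome 15 locus, overlapped between the genotypes in the same way. Let-7d-5p had 0.13 ± 0.12. The direction of let-7a, let-7b, let-7c and let-7d turned negative with library totals, at −0.03, −0.11, −0.05 and −0.05. Without ALAS12-KO replicate 1 the log2 fold changes of let-7a, let-7b, let-7c and let-7d were 0.06, −0.03, 0.03 and 0.08. Summing the near neighbours let-7a, let-7b, let-7c, let-7e and let-7f into 1 row, with TMM factors again computed anew, gave 0.14 ± 0.11 (SE). miR-98-5p, at 302, 303 and 259 CPM in WT and 368, 335, 298 and 315 in ALAS12-KO, had 0.19 ± 0.15 (edgeR adjusted p = 0.470), and only ALAS12-KO replicate 3 lay within the WT range. It had 0.11 without ALAS12-KO replicate 1 and 0.10 without WT replicate 3.

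**Figure D2:**
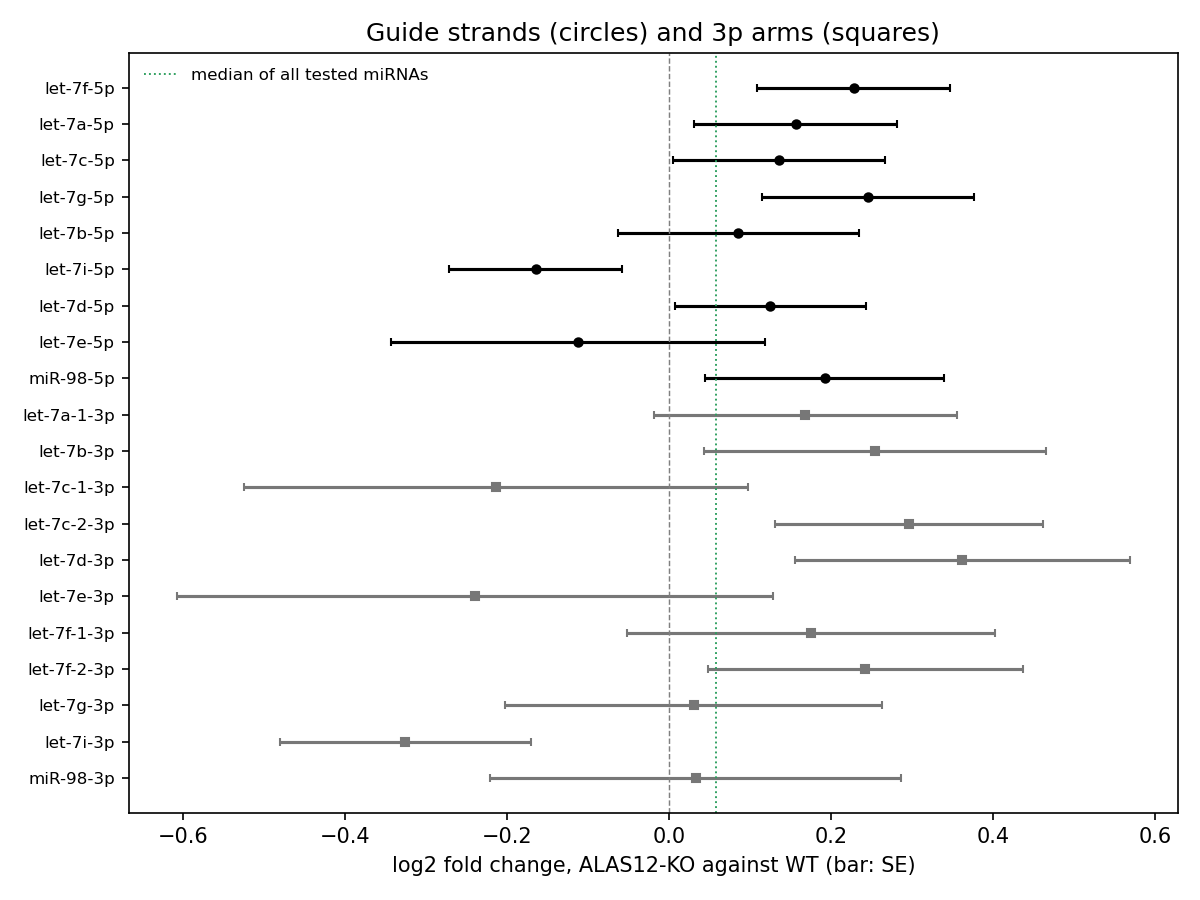
Log2 fold change (x axis, bar SE) of ALAS12-KO against WT for the 9 guide strands (circles) and the 11 tested 3p arms (squares), with the median of all tested miRNAs dotted. Both strands of let-7i and of let-7e lie left of 0, as does let-7c-1-3p, and none of the 20 passed the adjusted threshold.

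Let-7i-5p was the 1 member whose groups did not overlap, and it was lower in ALAS12-KO. It stood at 3663, 3832 and 3871 CPM in WT replicates 1 to 3 and at 3080, 3475, 3412 and 3554 in ALAS12-KO replicates 1 to 4. The means were 3789 ± 111 (SD, n = 3) and 3380 ± 208 (SD, n = 4), and the log2 fold change was −0.16 ± 0.11 (edgeR adjusted p = 0.390, 95% interval up to 0.08). Among all tested miRNAs the groups did not overlap for 20.2%, with 9.33% lower in ALAS12-KO, so 1 of 9 is not above the background. The log2 fold change was −0.15 without ALAS12-KO replicate 1, the lowest library, and stayed negative, from −0.33 to −0.15, under all 15 alternatives, with adjusted p of 0.188 or more.

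The 3p arm of let-7i was lower as well. Let-7i-3p stood at 40.6, 42.5 and 40.3 CPM in WT and 30.1, 32.7, 35.0 and 33.5 in ALAS12-KO, again without overlap. Its log2 fold change was −0.33 ± 0.16 (edgeR adjusted p = 0.283). As both arms come from the single Mirlet7i hairpin, these are 2 readings of 1 source. Let-7c-2-3p was the other of 2 among the 11 tested 3p arms whose groups did not overlap, which is near the 20.2% of all tested miRNAs. It was higher in ALAS12-KO, at 86.1, 93.5 and 94.6 CPM in WT and 128, 121, 99.5 and 101 in ALAS12-KO. Its log2 fold change was 0.30 ± 0.17 (edgeR adjusted p = 0.341), and its sequence is also that of let-7a-1-3p, so its count is uncertain.

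Let-7e-5p varied most between libraries of a genotype. It stood at 289, 295 and 407 CPM in WT and at 216, 294, 307 and 404 in ALAS12-KO, with a log2 fold change of −0.11 ± 0.23 (edgeR adjusted p = 0.805). WT replicate 3 was high and ALAS12-KO replicate 1 low, and the groups overlapped widely. Without WT replicate 3 the log2 fold change was 0.05, and without ALAS12-KO replicate 1 it was −0.0034.

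The share of each guide in family reads is a measure that does not depend on library scaling, and most shares overlapped between the genotypes. Let-7i held 4.73%, 4.80% and 5.31% of family reads in WT replicates 1 to 3 and 3.14%, 3.87%, 4.58% and 4.31% in ALAS12-KO replicates 1 to 4. Without ALAS12-KO replicate 1 the remaining ALAS12-KO shares, 3.87% to 4.58%, still lay below WT. Let-7g held 10.3%, 10.4% and 9.93% in WT and 10.9%, 11.0%, 10.7% and 10.5% in ALAS12-KO. These 2 of 9 shares did not overlap between the groups, let-7i below and let-7g above, and 20.9% of all tested miRNAs did not overlap when set against family reads in the same way, so 2 of 9 is near the background. Shares of 1 total are tied to each other, and no test was made of them. The log2 ratio of let-7i to let-7g had a WT mean of −1.05 ± 0.13 (SD, n = 3) and an ALAS12-KO mean of −1.45 ± 0.26 (SD, n = 4). This ratio was added after its values were seen and joins the 2 members whose shares did not overlap. It restates those shares and is not a separate reading of a difference between the genotypes. The shares of let-7f (37.2% ± 0.426 and 38.8% ± 0.980), let-7a, let-7b, let-7c, let-7d, let-7e and miR-98 overlapped between the genotypes.

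**Figure D3:**
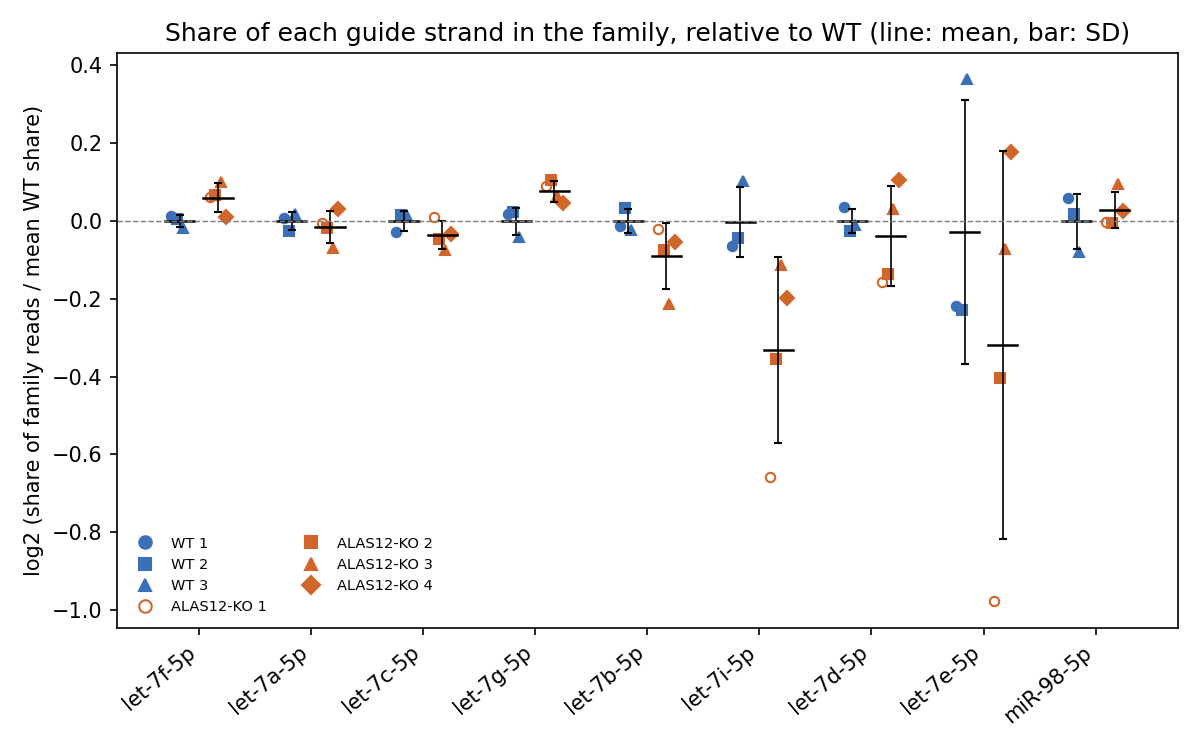
Share of each guide strand in family reads, as log2 of the share over the mean WT share (y axis), by library; line and bar are the mean and SD, and ALAS12-KO replicate 1 is the open circle. Let-7i and let-7e spread widely and are lowest in ALAS12-KO replicate 1, while let-7f, let-7a, let-7c and let-7g stay close to the WT mean.

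The share of let-7i in family reads was low in the libraries low in endothelial miRNAs. The endothelial miR-126a-3p and miR-126a-5p together took 3.79%, 3.56% and 5.25% of miRNA reads in WT replicates 1 to 3 and 1.10%, 2.55%, 3.65% and 2.96% in ALAS12-KO replicates 1 to 4. The libraries with the 3 lowest endothelial shares, ALAS12-KO replicates 1, 2 and 4, were also the 3 lowest for let-7i, and WT replicate 3 was the highest in both. The same 3 libraries were lowest, and WT replicate 3 highest, in mesenchymal and in bile duct miRNAs. In leukocyte miRNAs ALAS12-KO replicates 1 and 2 were lowest and WT replicate 3 highest. The match with let-7i is therefore not particular to endothelial miRNAs. For let-7e, ALAS12-KO replicates 1 and 2 were the lowest and WT replicate 3 the highest, but ALAS12-KO replicate 4 was second highest (0.490% of family reads). For let-7g, WT replicate 3 was the lowest and ALAS12-KO replicates 2 and 1 the highest.

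Leukocyte markers (6 of 6 in the counts) took 0.801% to 1.08% of miRNA reads in WT and 0.293% to 0.977% in ALAS12-KO. Mesenchymal markers (5 of 5) took 0.416% to 0.697% and 0.156% to 0.573%, each lowest in ALAS12-KO replicate 1. Within the mesenchymal list 4 log2 fold changes were negative, while that of miR-214-3p was positive (0.39 ± 0.53, SE). Markers of bile duct cells (5 of 5) took 0.0139% to 0.0243% and 0.00544% to 0.0105%, and red cell markers (4 of 4) 0.00205% to 0.00272% and 9.11e-04% to 0.00203%, without overlap for either list. Both of these lists were split in whether the groups overlapped. By log2 fold change, miR-200a-3p (−1.31), miR-200b-3p (−1.30) and miR-429-3p (−1.27) were lower without overlap, while miR-141-3p (−0.10) and miR-200c-3p (−0.07) overlapped. Both miR-144 arms were lower without overlap, while miR-451a and miR-486a-5p overlapped. Among all tested miRNAs 20.2% did not overlap. Hepatocyte miRNAs, led by miR-122-5p, took 63.3% to 66.1% of reads in WT and 60.5% to 69.3% in ALAS12-KO, highest in replicate 1 and lowest in replicate 3. On the TMM scale 6 of 6 had positive log2 fold changes, from 0.18 to 0.39, beside 56% of all tested miRNAs. Of the 28 markers of all lists, 7 were positive and 21 negative. No marker was at 0 in all libraries, and 0 of the 28 markers passed the edgeR adjusted threshold. The part of these other cells in the let-7i and let-7e values was not tested, and in whole-cell RNA fewer cells of a type and less RNA per cell cannot be told apart.

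**Figure D4:**
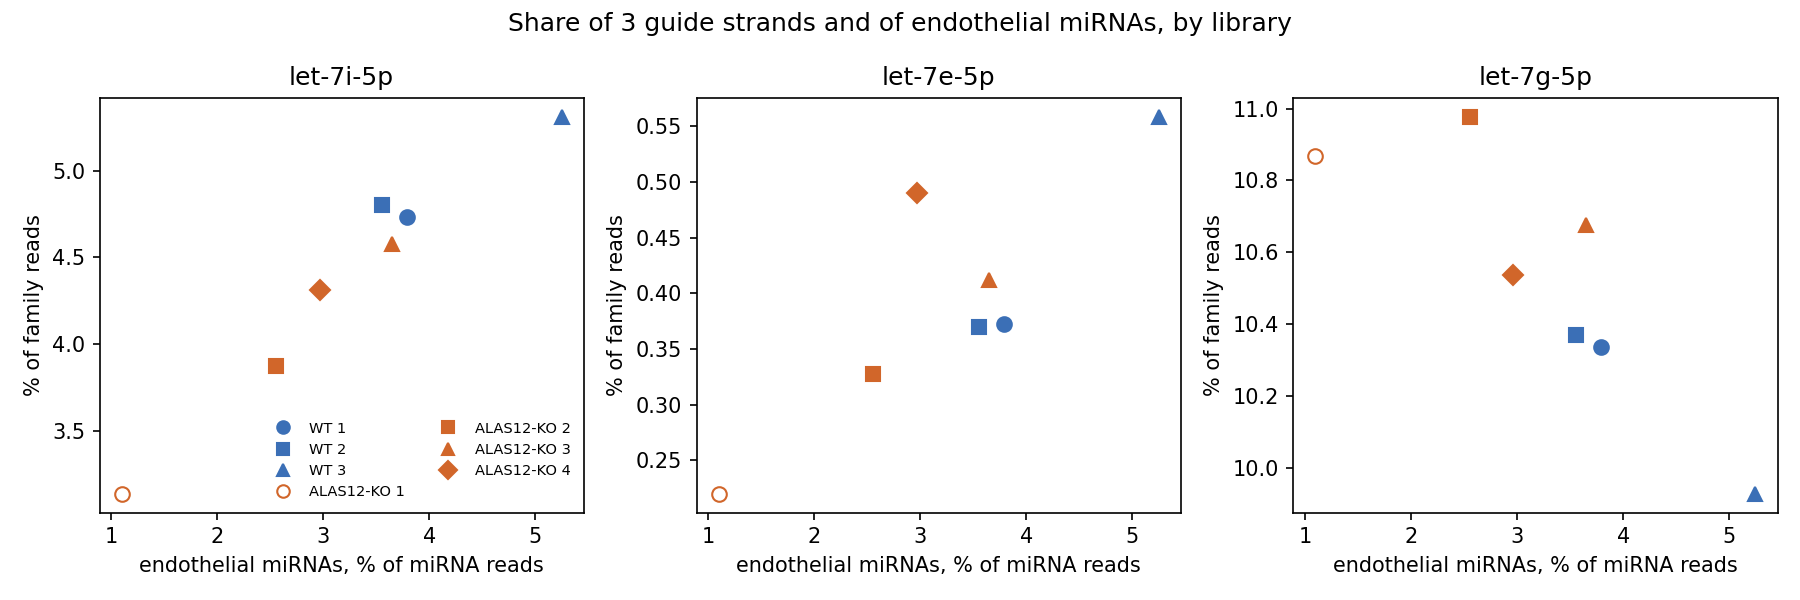
Percent of family reads held by let-7i, let-7e and let-7g (y axes) against the percent of miRNA reads held by the endothelial miR-126a arms (x axes), 1 point per library, WT blue and ALAS12-KO orange. ALAS12-KO replicate 1 (open circle) has the lowest endothelial share and the lowest let-7i and let-7e shares, and WT replicate 3 the highest of each.

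The 3p strands had few reads beside their guides. All 12 3p arms of the family together came to 0.355% ± 0.0250 of the guide reads in the 3 WT libraries and 0.354% ± 0.0184 (SD) in the 4 ALAS12-KO libraries. Arm by arm, the highest were let-7d-3p at 1.76% of its guide on average over the 7 libraries, miR-98-3p at 1.51% and let-7i-3p at 1.02%. Let-7f-1-3p, at 0.0335%, and let-7c-1-3p, at 0.0137%, were near the low end. For the 11 family hairpins with both arms tested, the arms lay a median of 8.77 apart on the log2 scale, beside 4.53 over 148 hairpins, and 11 of 11 lay above that median. Since both arms had to pass the filter on low counts, a wide gap can be seen only where 1 arm is abundant. The part of abundance in this difference was not tested. For let-7a, let-7c and let-7f the guide reads can come from both hairpins, which widens the gap for each of their 3p arms.

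The balance of the arms did not pass the test for any family hairpin. limma on the log2 ratio of 3p to 5p reads, with Benjamini-Hochberg adjustment over 148 hairpins, called 0 of 11 and 0% of all, with 0 of 11 and 5.41% at unadjusted p under 0.05. For let-7i the log2 ratio differed by −0.16 ± 0.11 (ALAS12-KO minus WT, limma adjusted p = 0.704). Its 3p arm was 1.09% ± 0.0387 of the guide in the 3 WT libraries and 0.972% ± 0.0397 (SD) in the 4 ALAS12-KO libraries, without overlap. This was 1 of 11, beside 9.46% of all hairpins without overlap. The other differences ran from −0.36 ± 0.26 for let-7c-1-3p to 0.25 ± 0.21 for let-7d-3p.

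**Figure D5:**
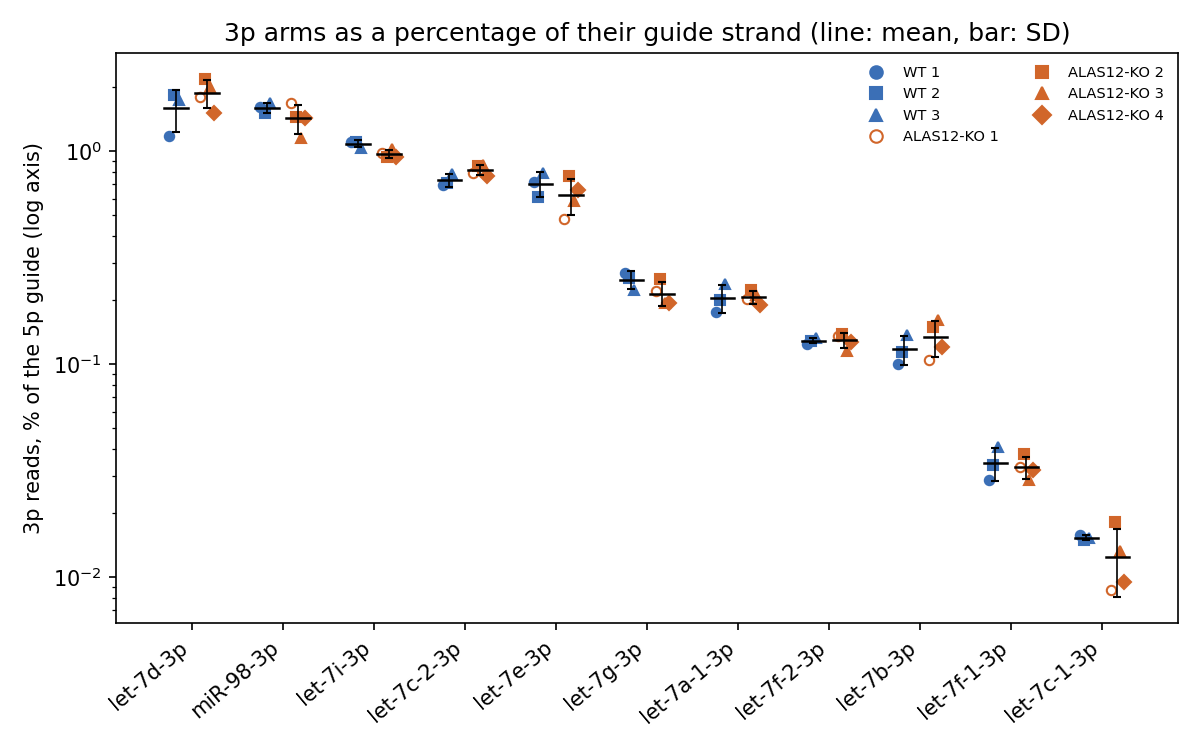
Reads of each 3p arm as a percentage of its 5p guide (log axis) by library, for the 11 arms read in every library; line and bar are the mean and SD. The means over the 7 libraries span from 1.76% for let-7d-3p to 0.0137% for let-7c-1-3p, and the genotypes overlap for all but let-7i-3p.

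For let-7a, let-7c and let-7f, each made by 2 hairpins, the guide does not tell the hairpins apart, while the 3p arms of the 2 hairpins differ in sequence. Their RefSeq 3p sequences follow, with capitals for bases that differ from the arm of the other hairpin of that guide, position by position.
let-7a-1-3p: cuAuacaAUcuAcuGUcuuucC
let-7a-2-3p: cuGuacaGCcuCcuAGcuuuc
let-7c-1-3p: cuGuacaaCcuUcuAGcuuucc
let-7c-2-3p: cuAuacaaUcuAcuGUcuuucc
let-7f-1-3p: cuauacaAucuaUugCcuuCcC
let-7f-2-3p: cuauacaGucuaCugUcuuUc

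The counts of the 3p arms were unequal within each pair, with the limit for let-7a-1-3p and let-7c-2-3p that they share 1 sequence. Let-7a-2-3p had 0 to 4 reads per library, where let-7a-1-3p had 325 to 744, and it was the 1 arm of the 12 that failed the filter. Let-7c-1-3p had 15 to 44 reads where let-7c-2-3p had 823 to 2086. Let-7f-2-3p, from Huwe1, made up 79.0% ± 2.47 of let-7f 3p reads in the 3 WT libraries and 79.8% ± 0.798 (SD) in the 4 ALAS12-KO libraries. Mirlet7a-2 and Mirlet7c-1, whose 3p sequences had few reads, are the hairpins beside Mir100 and Mir99a. The 3p reads need not mirror how much guide each hairpin made.

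The sequences also show a limit of the counts. Let-7a-1-3p and let-7c-2-3p are the same 22 bases from chromosomes 13 and 15, yet they had separate counts, with 2.53 to 3.10 times more reads under let-7c-2-3p. Which of the 2 a read was given to therefore cannot rest on the mature sequence alone, and only their sum is safe to read. Let-7j, with 111 to 323 reads, differs from let-7i over their 22 shared positions only by G8U, a change in the seed. Its reads were 0.330% to 0.448% of those of let-7i. Let-7k, with 20 to 50 reads, carries the family seed and differs from let-7b over 19 positions only by U9G. Neither passed, at 0.01 ± 0.19 for let-7j (edgeR adjusted p = 0.993) and 0.11 ± 0.28 for let-7k (0.846). Of the 1675 counted miRNAs with a RefSeq sequence, 2 others carry the family seed, let-7k and miR-1961, and miR-1961 had 0 reads in all 7 libraries.

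Of the 5 miRNAs that share loci with let-7a-2, let-7c-1 and let-7e, 0 passed. miR-125a-5p, beside let-7e, stood at 503, 485 and 586 CPM in WT and 246, 374, 350 and 524 in ALAS12-KO, with a log2 fold change of −0.49 ± 0.24 (edgeR adjusted p = 0.283). miR-99b-5p, of the same cluster, had −0.34 ± 0.27. Let-7e, miR-99b and miR-125a were each lowest in ALAS12-KO replicate 1 and highest in WT replicate 3. miR-99a-5p, beside let-7c-1, stood at 451, 377 and 370 CPM in WT and 432, 379, 976 and 626 in ALAS12-KO, and miR-100-5p, beside let-7a-2, at 53.7, 46.8 and 60.8 in WT and 15.9, 33.1, 117 and 67.4. Both were highest in ALAS12-KO replicate 3. miR-125b-5p, also made from a second locus, had −0.23 ± 0.14 and was the 1 of 5 whose groups did not overlap, near the 20.2% of all tested miRNAs.

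The miRNAs most like the summed family over the 7 libraries were miR-25-3p, miR-140-3p, miR-26b-5p, miR-29a-3p and miR-148b-3p. Their centred log2 levels differed from that of this sum by a root mean square of 0.046 to 0.069. The median was 0.21 over the 97 miRNAs outside the family with a mean of at least 100 CPM.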

How the data were processed

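The authors deposited raw read counts by mature miRNA name, 1 file a library, whose whole-number values show no normalization. The submitters' processing notes name cutadapt, limma and the builds mm10 and hg38, without saying what each was for. Which aligner, counter and miRNA annotation they used is not given in the sources used here. Totals ran from 7719180 to 21962191 miRNA reads per library, so 1 CPM stood for 7.72 to 22.0 reads. The 5 summary entries stayed out of all totals; reads outside any miRNA made up 50.9% to 73.7% of counted reads and those not aligned 4.54% to 8.00%. Within a genotype, each pair of libraries differed beyond sampling noise, at a chi-square per degree of freedom of 97.4 to 1104.

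Differences were tested with edgeR 4.0.16 in R 4.3.3 (quasi-likelihood test with robust dispersions and TMM scaling, low counts removed by filterByExpr at a minimum of 10, Benjamini-Hochberg threshold 0.05), and arm ratios with limma 3.58.1 after adding 0.5 to each count. A 3p arm with a hairpin number was set against the shared 5p guide. The scripts were tested on simulated data. DESeq2 1.42.0, limma-voom, other scalings and filters, a replicate block and leaving out libraries were alternatives. Named were the 9 guides, all their 3p arms, 5 cluster partners, other miRNAs with the seed or a let-7 name, marker lists, and the 5 miRNAs nearest to the family. Let-7j lacks the seed and was added after its values were seen, as were the ratio of let-7i to let-7g and the hairpin shares of 3p reads. Members and lists were chosen with earlier results of these data known.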

Additional observations from a re-analysis of the deposited data

How the results depend on the processing

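Under every alternative run, 0 of the 9 guides and 0 of the tested family arm ratios passed. Over all miRNAs, the count of 0 became 2 with library totals, 21 with DESeq2 and 13 with no filter on low counts, and ranged from 0 to 1 with 1 library left out. The direction of the summed family turned with library totals (−0.019). The values counted next for single guides include the summed row of near neighbours, whose 1 value was entered for each of its 5 members. Of 140 alternative values for single guides, 130 kept their direction and 10 reversed: with library totals let-7a (−0.034), let-7b (−0.11), let-7c (−0.055) and let-7d (−0.051); with a mean CPM of at least 10 let-7b (−0.061), let-7c (−0.0091) and let-7d (−0.014); without WT replicate 3 let-7e (0.051, with −0.32 to 0.051 over the libraries left out); without ALAS12-KO replicate 1 let-7b (−0.033); and let-7e (0.14) when summed with its near neighbours. Of 106 arm ratio values 7 reversed, all when 1 library was left out: let-7a-1-3p (0.02 with all libraries) ran from −0.086 to 0.13, let-7f-1-3p (−0.06) from −0.18 to 0.073 and let-7f-2-3p (0.0029) from −0.033 to 0.057.

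Same-numbered libraries did not deviate together (correlations −0.02, −0.42 and −0.02 over 450 miRNAs). Pairs with different numbers ran from −0.34 to 0.48. With so few libraries per genotype, these values cannot show whether the numbers pair the libraries, and the labels do not say. With a replicate block 0 of 9 guides passed, the summed family had 0.13 and let-7i −0.19. The cause of these shifts was not tested. Rare arms limit what can be seen: let-7a-2-3p had at most 4 reads.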
